A study of Mus musculus with 6 samples.

Results

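The integrated stress response genes described here are 10 genes fixed by name: Atf4, Ddit3, Trib3, Chac1, Asns, Ppp1r15a, Mthfd2, Vldlr, Psat1 and Shmt2. All 10 were matched by gene symbol among the 22180 genes measured on the arrays, and each is represented by 1 probe set. The samples are tibialis anterior, a shin muscle made mostly of fast-twitch fibres, taken from male C57Bl/6 mice at 18 weeks of age. The groups are 3 castrated mice labelled refed and 3 sham-operated mice labelled fasted, all operated on at 11 weeks of age and left to recover for 7 weeks. Castration takes away most circulating androgen, which the testes make. The series design describes an overnight fast, a meal of 30 minutes for some mice, and 4 further hours without food for all, whereas the treatment protocol of the samples has every mouse eat it. Since each castrated mouse is labelled refed and each sham mouse fasted, effects of surgery and of feeding cannot be told apart.

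The integrated stress response begins when a kinase phosphorylates the translation factor eIF2. That slows its exchange factor eIF2B, lowers protein synthesis in general and favours translation of a few messages, among them that of the transcription factor ATF4. ATF4 then raises genes for amino acid synthesis, uptake and tRNA charging, as well as genes that end or redirect the response. In muscle the response is known from amino acid shortage, endoplasmic reticulum stress and mitochondrial dysfunction. Arrays measure messenger RNA, so neither eIF2 phosphorylation nor ATF4 protein was measured here.

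The muscle label was borne out by its markers, as 6 fast-fibre and muscle genes (Ckm, Acta1, Myh4, Tnnt3, Mylpf and Pvalb) had log2 values between 12.18 and 13.64 on every array. Array medians over all genes lay between 5.40 and 5.47, and correlations between arrays were 0.9904 to 0.9924 for samples sharing a group and 0.9895 to 0.9916 for samples that did not. The muscle comes as a bulk sample, so fewer cells of a type and less RNA per cell cannot be told apart. Of 5 tendon fibroblast markers 3 were higher in castrated samples at an unadjusted p under 0.05, with a summed linear signal of 733 to 1020 in castrated and 518 to 843 in sham samples. Of 5 endothelial markers 1 (Emcn) was higher at that level, and so were 3.62% of all genes. The part of these cells in the results below was not tested. For tendon fibroblast, macrophage, adipocyte, Schwann cell, endothelial and fibro-adipogenic progenitor markers the summed signals of the groups overlapped.

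The stretches before the gene starts are shown for the members that hold a binding motif of ATF4 or a related factor, since ATF4 acts on its targets through such sites. The 250 bases before each RefSeq gene start (build GRCm38.p6) were searched on both strands for TGATGNAA, the core of the element bound by C/EBP and ATF dimers, for the full cyclic AMP response element TGACGTCA, for the related TGACGNAA, and for the endoplasmic reticulum stress element (CCAAT, any 9 bases, CCACG). All 10 members had an entry, with 12 start sites. Capitals mark the motifs, which do not overlap each other in these stretches. The Chac1 stretch is chr2:119350992-119351241 on the plus strand, the Asns stretch chr6:7693210-7693459 on the minus strand and the Ppp1r15a stretch chr7:45526269-45526518 on the minus strand. For Vldlr 30 bases around the motif before the second of its start sites are given (chr19:27216809-27216838, plus strand).
Chac1: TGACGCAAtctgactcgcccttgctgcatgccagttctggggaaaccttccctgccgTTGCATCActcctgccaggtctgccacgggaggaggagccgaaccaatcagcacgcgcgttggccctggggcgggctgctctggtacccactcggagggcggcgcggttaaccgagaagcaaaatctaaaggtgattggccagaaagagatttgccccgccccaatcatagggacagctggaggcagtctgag
Asns: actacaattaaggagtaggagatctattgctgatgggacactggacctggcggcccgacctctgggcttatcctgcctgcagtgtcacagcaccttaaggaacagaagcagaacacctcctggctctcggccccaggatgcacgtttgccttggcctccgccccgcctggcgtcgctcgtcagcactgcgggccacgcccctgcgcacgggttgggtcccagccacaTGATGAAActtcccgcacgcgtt
Ppp1r15a: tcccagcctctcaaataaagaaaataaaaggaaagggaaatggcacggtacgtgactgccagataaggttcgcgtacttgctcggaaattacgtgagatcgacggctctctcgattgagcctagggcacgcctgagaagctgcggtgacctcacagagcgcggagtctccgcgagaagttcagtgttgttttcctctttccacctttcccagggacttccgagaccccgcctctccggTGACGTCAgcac
Vldlr: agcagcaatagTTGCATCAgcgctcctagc

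The core TGATGNAA stood in 3 of the 12 member windows (Chac1, Asns and Vldlr, in Chac1 and Vldlr as its reverse complement TTGCATCA) and in 3.45% of all 32851 windows. Counted from the gene start, it began at position −193 for Chac1 and at −23 for Asns. Among the members TGACGTCA was found before Ppp1r15a only, at position −12, and in 1.55% of all windows. TGACGNAA was found before Chac1 and in 1.39% of all windows, and the endoplasmic reticulum stress element before 0 of 12 member starts and in 0.113% of all windows. A match is a stretch of letters and does not show that a factor was bound there.

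Among the 10 genes, the phosphatase regulator Ppp1r15a, the folate enzyme Mthfd2 and the lipoprotein receptor Vldlr had the largest negative differences between castrated and sham muscle, while the glutathione-degrading enzyme Chac1 differed in the opposite direction. Atf4 itself and its partner Ddit3 overlapped between the groups. With limma's moderated test and Benjamini-Hochberg adjustment over all genes, 0 of 10 members passed the threshold of 0.05, against 0.0135% of all genes (3 of 22180). At an unadjusted p under 0.05, 3 members were lower and 1 was higher, where 3.51% of all genes were lower and 3.62% higher. All castrated samples lay below all sham samples for 4 members, against 7.02% of all genes, and above them for 1 member, against 5.73%. The median log2 difference, castrated minus sham, was −0.14 over the members and −0.0056 over all genes. The members were chosen with earlier results of these arrays known, so these counts describe them and do not test them as a set. The median was −0.061 without sham sample 3 and −0.091 without castrated sample 2.

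**Figure D1:**
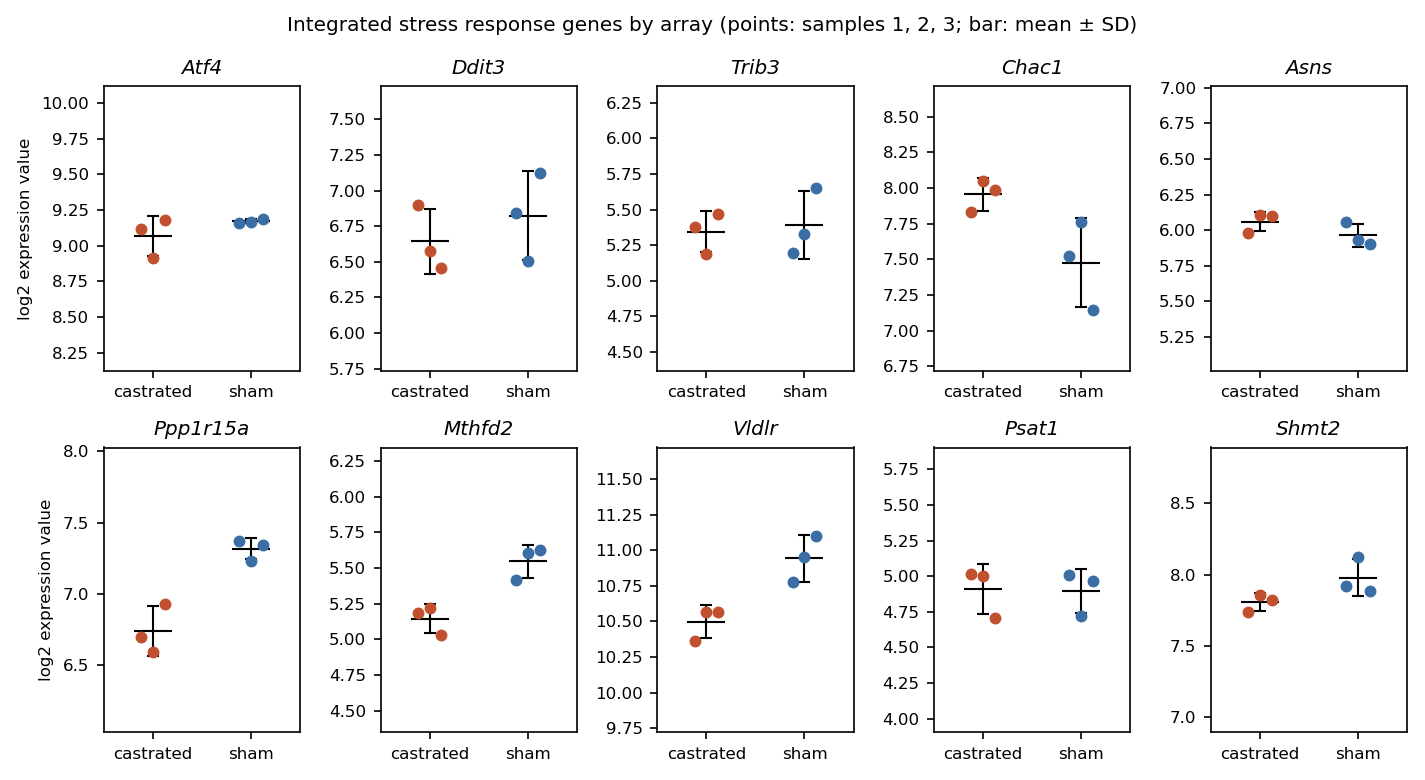
Log2 expression values of the 10 genes on each array, with castrated samples left of sham samples, points in the order of samples 1 to 3, and bars for the mean ± SD (n = 3 each). Every panel spans the same range of log2 units. The groups are apart for Chac1, Ppp1r15a, Mthfd2, Vldlr and Shmt2 and overlap for the other 5.

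Atf4 (Entrez 11911) encodes the transcription factor at the centre of the response. Its log2 values were 9.12, 8.91 and 9.18 in castrated samples and 9.16, 9.16 and 9.19 in sham samples. The sham values were nearly identical, castrated sample 2 was the lowest, and castrated sample 3 lay within the sham range. The difference was −0.10 (standard error 0.10, 95% interval −0.34 to 0.14, limma adjusted p = 0.872). Leaving out castrated sample 2 gave −0.021, and leaving out castrated sample 3 gave −0.16.

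Ddit3 (Entrez 13198) encodes CHOP, a transcription factor induced by ATF4 and known for its part in stress-induced cell death. It measured 6.90, 6.58 and 6.46 in castrated samples and 6.84, 6.50 and 7.12 in sham samples. The groups overlap over most of their range, and sham sample 3 was the highest. The difference was −0.18 (standard error 0.17, limma adjusted p = 0.859) and ran from −0.34 without sham sample 2 to −0.029 without sham sample 3. Trib3 (Entrez 228775), a pseudokinase induced by both factors that feeds back on ATF4, had 5.38, 5.19 and 5.47 in castrated samples and 5.19, 5.33 and 5.65 in sham samples. Its difference of −0.048 (standard error 0.14, limma adjusted p = 0.958) had no settled direction, since it was 0.083 without sham sample 3 and 0.030 without castrated sample 2.

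Ppp1r15a (Entrez 17872) encodes GADD34, which directs a phosphatase to eIF2 and so ends the translational arrest. It measured 6.69, 6.59 and 6.93 in castrated samples, against 7.37, 7.23 and 7.35 in sham samples. Every castrated value was below every sham value, and castrated sample 3 was the closest to the sham group. Mean log2 values were 6.74 ± 0.18 in castrated and 7.32 ± 0.075 in sham samples (SD, n = 3 each), which is 1.49-fold lower in castrated samples. The log2 difference of −0.58 (standard error 0.12, 95% interval −0.84 to −0.32) had the smallest p of the 10 members and did not pass over all genes (limma adjusted p = 0.395). Over the alternatives its adjusted p ran from 0.0688, with genes below the median level left out, to 0.761 without variance moderation.

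Ppp1r15b, the constitutive partner of the same phosphatase, measured 7.23, 7.32 and 7.23 in castrated samples and 7.17, 7.36 and 7.55 in sham samples. These values overlap, with a difference of −0.096 (standard error 0.12, limma adjusted p = 0.893). The difference was −0.00079 without sham sample 3 and −0.19 without sham sample 1. The within-array log2 difference Ppp1r15a minus Ppp1r15b averaged −0.52 ± 0.22 in castrated and −0.041 ± 0.22 in sham samples (SD, n = 3 each). All castrated values of it lay below all sham values. It is given without a test because the pair was chosen after its values were seen.

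**Figure D2:**
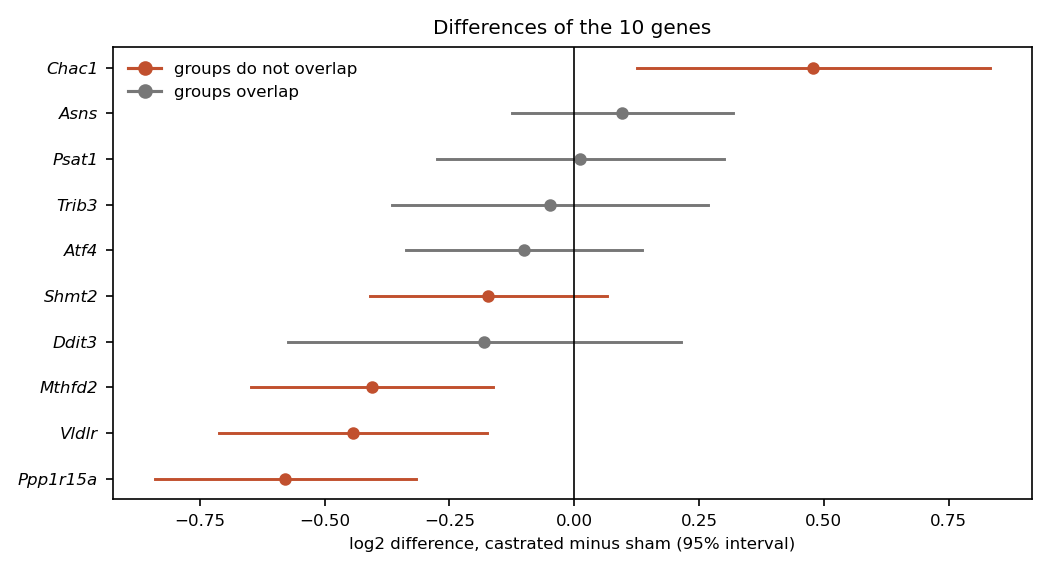
Log2 difference of each of the 10 genes, castrated minus sham, as a point with its 95% interval from limma. Genes run from the highest difference (Chac1, 0.48) to the lowest (Ppp1r15a, −0.58), and red marks the 5 genes whose groups do not overlap.

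Chac1 (Entrez 69065) is an ATF4 target that cleaves glutathione. It measured 7.83, 8.05 and 7.99 in castrated samples, against 7.52, 7.76 and 7.14 in sham samples. All castrated values were above all sham values, and sham sample 2 came close to castrated sample 1. Means were 7.96 ± 0.11 in castrated and 7.48 ± 0.31 in sham samples (SD, n = 3 each), 1.39-fold higher in castrated samples. The log2 difference was 0.48 (standard error 0.16, 95% interval 0.13 to 0.83, limma adjusted p = 0.658). It was 0.31 without sham sample 3, the lowest sample. The within-array difference Chac1 minus Ppp1r15a was between 1.06 and 1.46 in castrated samples and between −0.20 and 0.53 in sham samples. That pair was chosen for its opposite directions and has no test.

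Asns (Entrez 27053), asparagine synthetase, makes asparagine and is a standard ATF4 target. It measured 5.98, 6.10 and 6.10 in castrated samples and 6.05, 5.93 and 5.90 in sham samples. The groups overlap, and the difference of 0.097 (standard error 0.098, 95% interval −0.13 to 0.32, limma adjusted p = 0.868) was about the size of its error.

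Of the serine and folate enzymes among the members, none passed over all genes. Psat1 (Entrez 107272), the transaminase of serine synthesis, had 5.016, 5.004 and 4.709 in castrated samples and 5.007, 4.719 and 4.968 in sham samples. Each group held 1 low sample, and the difference of 0.012 (standard error 0.13, limma adjusted p = 0.987) changed sign under several alternatives. Shmt2 (Entrez 108037), the mitochondrial enzyme that converts serine to glycine and charges folate, measured 7.74, 7.86 and 7.82 in castrated samples and 7.92, 8.13 and 7.89 in sham samples. Its groups do not overlap, but castrated sample 2 and sham sample 3 nearly meet, and the difference of −0.17 (standard error 0.10, 95% interval −0.41 to 0.066, limma adjusted p = 0.784) did not pass at the unadjusted level either. Without sham sample 2 it was −0.097.

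Mthfd2 (Entrez 17768) is the mitochondrial enzyme that acts on the folate carbon supplied by Shmt2 and is mostly low in adult tissue. It measured 5.19, 5.22 and 5.03 in castrated samples, against 5.42, 5.60 and 5.63 in sham samples. Every castrated value was below every sham value. Means were 5.14 ± 0.10 in castrated and 5.55 ± 0.12 in sham samples (SD, n = 3 each), 1.32-fold lower in castrated samples (log2 difference −0.40, standard error 0.11, 95% interval −0.65 to −0.16, limma adjusted p = 0.529). These values lie near the array medians, and whether they were above background was not tested. The Trib3 values also lie near the array medians and the Psat1 values below them, and neither gene was tested against background.

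Vldlr (Entrez 22359) takes up triglyceride-rich lipoproteins in muscle, heart and fat and is raised by ATF4 under endoplasmic reticulum stress in cultured cells and liver. It measured 10.36, 10.57 and 10.57 in castrated samples, against 10.77, 10.95 and 11.10 in sham samples. The groups do not overlap, with castrated sample 1 the lowest and sham sample 3 the highest. Means were 10.50 ± 0.12 in castrated and 10.94 ± 0.16 in sham samples (SD, n = 3 each), 1.36-fold lower in castrated samples (log2 difference −0.44, standard error 0.12, 95% interval −0.71 to −0.18, limma adjusted p = 0.544).

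Across the 10 genes the extreme values were unevenly spread over the arrays. Sham sample 3 held the highest value of 5 members (Atf4, Ddit3, Trib3, Mthfd2 and Vldlr) and the lowest of 2 (Chac1 and Asns). The lowest value of the other 8 members lay in a castrated sample. With each gene centred on its mean over the 6 arrays, the members' median was −0.018, −0.14 and −0.083 in castrated samples and 0.048, 0.045 and 0.17 in sham samples. The medians of the groups therefore do not overlap, and sham sample 3 stood highest.

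**Figure D3:**
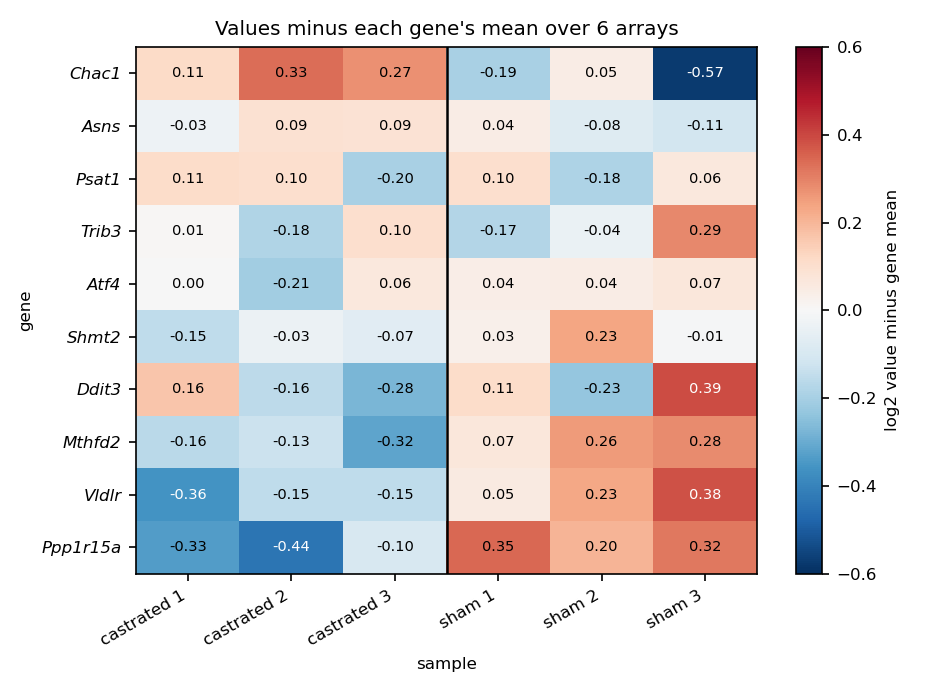
Log2 values of the 10 genes minus each gene's mean over the 6 arrays, with castrated samples left of the line and sham samples right of it. Red cells are above and blue cells below the gene's mean. Sham sample 3 holds both the lowest Chac1 cell (−0.57) and the highest Ddit3 (0.39) and Vldlr (0.38) cells.

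The genes that start the response came next. Of 14 measured genes for eIF2 kinases, eIF2 and eIF2B subunits and their regulators, 12 had a lower mean in castrated samples, with a median of −0.115, where 51.5% of all genes had a lower mean. The median was −0.078 with quantile normalization, −0.077 with cyclic loess and −0.13 with array medians subtracted. It was −0.16 without sham sample 1, and without sham sample 3 the count with a lower mean was 10. Over all genes 0 passed, and 3 were lower and 0 higher at an unadjusted limma p under 0.05. At that level 3.51% of all genes were lower and 3.62% higher, and the counts of the lists below have the same background. Among the kinases, Eif2ak2, the interferon-inducible kinase PKR that senses double-stranded RNA, measured 5.26, 5.56 and 5.41 in castrated samples, against 5.81, 6.00 and 5.77 in sham samples. Its groups do not overlap, with a difference of −0.45 (standard error 0.12, limma adjusted p = 0.521). The kinase of endoplasmic reticulum stress, Eif2ak3 (PERK), differed by −0.065 and the amino acid sensor Eif2ak4 (GCN2) by 0.048, both with overlapping groups. The remaining kinase, Eif2ak1, had the highest level of the kinases and differed by 0.027, also with overlapping groups. Eif2ak3 ran from −0.13 without sham sample 2 to −0.022 without sham sample 3. Eif2ak4 was −0.014 without sham sample 2 and −0.028 without castrated sample 3.

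All 5 subunits of eIF2B, the exchange factor that phosphorylated eIF2 blocks, had a lower mean in castrated samples. Eif2b3 measured 6.70, 6.80 and 6.73 in castrated samples, against 6.98, 7.06 and 7.06 in sham samples. Eif2b4 measured 6.36, 6.36 and 6.37 in castrated samples, against 6.76, 6.61 and 6.48 in sham samples. Neither gene overlapped between groups, with differences of −0.29 (standard error 0.093, limma adjusted p = 0.658) and −0.26 (standard error 0.10, limma adjusted p = 0.687). Eif2b1 differed by −0.15, Eif2b5 by −0.15 and Eif2b2 by −0.17, and of these only Eif2b2 overlapped between the groups. Eif2b1 was −0.095 without sham sample 2. The eIF2B subunits were singled out within their list after the values were seen, and 0 of 5 passed over all genes.

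**Figure D4:**
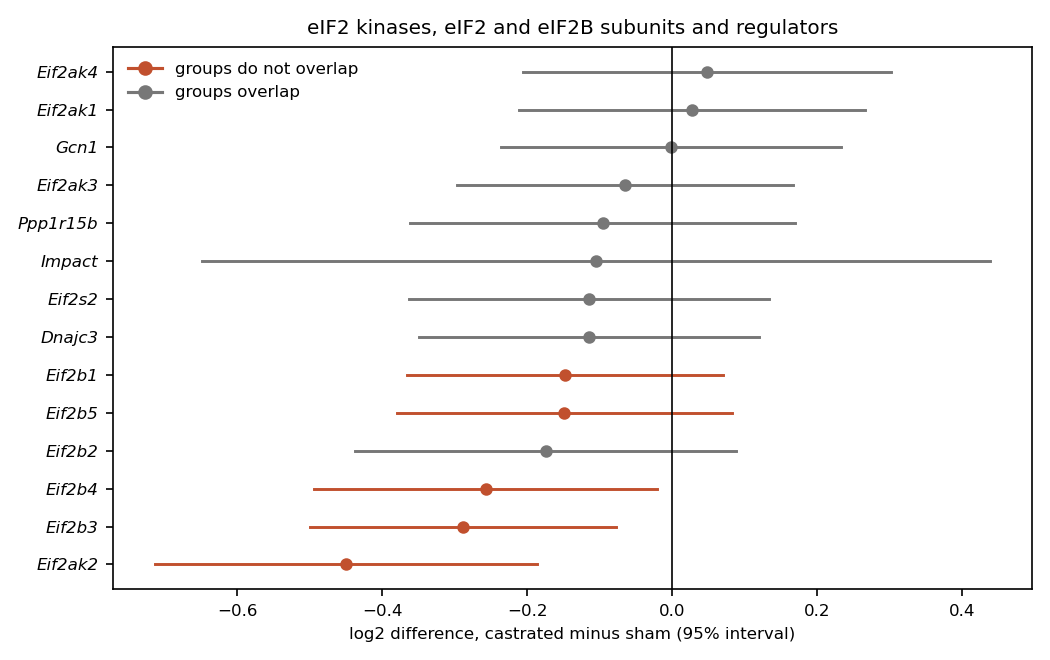
Log2 difference, castrated minus sham, of the 14 measured genes for eIF2 kinases, eIF2 and eIF2B subunits and their regulators, each with its 95% interval from limma. Red marks the 5 genes whose groups do not overlap, which are Eif2ak2 and 4 eIF2B subunits, and the kinase Eif2ak4 lies at the top near 0. All castrated samples lay below all sham samples for 7.02% of all genes.

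Other factors and stress-induced genes of the pathway had a lower mean in castrated samples for 9 of 13 genes (median −0.12). Leaving out sham sample 3 gave a median of −0.056, leaving out castrated sample 1 gave −0.059 and leaving out castrated sample 3 gave −0.064. At the unadjusted level 2 were lower and 0 higher, and 0 passed over all genes. Eif4ebp1, an ATF4 target that represses cap-dependent translation, measured 9.56, 9.23 and 9.85 in castrated samples and 10.14, 9.72 and 10.13 in sham samples. Its groups overlap through castrated sample 3, the difference was −0.45 (standard error 0.18, limma adjusted p = 0.685), and it was −0.29 without castrated sample 2. The death receptor Tnfrsf10b differed by −0.43, and castrated sample 1, at 6.23, lay within the sham values of 6.08 to 6.40. Without that sample it was −0.65. The transcription factor Atf5 differed by −0.20 and Sesn2, a leucine-sensing inhibitor of mTORC1, by −0.12, both without overlap. For Atf5, castrated sample 1 (7.306) and sham sample 2 (7.316) nearly meet, and neither gene passed at the unadjusted level. All castrated samples lay below all sham samples for 7.02% of all genes. Without sham sample 3 the Atf5 value was −0.086. Fgf21, a hormone that stressed muscle can secrete, differed by 0.069 (standard error 0.18), and its direction turned without sham sample 2 or castrated sample 1.

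All 11 measured aminoacyl-tRNA synthetases, which charge tRNAs with amino acids and are known ATF4 targets, had a lower mean in castrated samples, with a median of −0.135 and a range of −0.22 to −0.029. With quantile or cyclic loess normalization, or without sham sample 2 or castrated sample 1, 10 of 11 did. At an unadjusted limma p under 0.05 1 was lower and 0 were higher, and 0 passed over all genes. Nars measured 9.40, 9.53 and 9.52 in castrated samples, against 9.71, 9.67 and 9.72 in sham samples, a difference of −0.22 (standard error 0.094, limma adjusted p = 0.696). Sars, Cars and Gars differed by −0.17, −0.15 and −0.14, and Sars by −0.097 without sham sample 2. Centred per array, the synthetases' median was −0.16, 0.0025 and −0.018 in castrated samples and −0.014, 0.081 and 0.096 in sham samples, so the groups overlap and castrated sample 1 was the lowest.

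Enzymes of serine, folate, proline and transaminase metabolism other than the members showed no common direction, with a lower mean for 5 of 13 genes and a median of 0.025 that ran from 0.010 to 0.070 with a castrated sample left out. Aldh1l2, a mitochondrial folate dehydrogenase, had the smallest p among them and measured 5.12, 5.19 and 5.12 in castrated samples, against 4.95, 4.91 and 4.88 in sham samples. It was thus apart in the opposite direction to Mthfd2, with a difference of 0.23 (standard error 0.091, limma adjusted p = 0.685). The Aldh1l2 values lie below the array medians, and whether they were above background was not tested. Pck2, the mitochondrial PEP carboxykinase, differed by −0.23, the proline enzyme Aldh18a1 by −0.16 and the cytosolic Shmt1 by 0.20, and Shmt1 was 0.056 without castrated sample 2 and 0.13 without sham sample 1. Aldh18a1 was −0.085 without sham sample 2. Of 8 amino acid transporters 4 had a lower mean, and their median of 0.0030 has no settled direction. Slc1a5, a glutamine transporter, differed by 0.25 without overlap, Slc7a1 by −0.28, Slc7a5 by −0.17 and Slc38a2 by −0.13. As the mean of all its probe sets Slc1a5 differed by 0.18. Slc7a1 was −0.14 without castrated sample 2, and Slc7a5 was −0.10 without sham sample 3 and −0.11 without castrated sample 1. The cystine transporter Slc7a11 differed by 0.027 at a dim level of 3.24 to 3.55. Over all genes 0 members of either list passed, while at the unadjusted level 1 enzyme was lower, 1 enzyme was higher, 0 transporters were lower and 1 transporter was higher.

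Genes of the other endoplasmic reticulum stress branches, run by IRE1 and ATF6, were centred near 0. Of 18 measured, 12 had a lower mean (median −0.012), but only 5 did after quantile or cyclic loess normalization, so no direction can be given. Hspa5, the chaperone BiP, measured 8.20, 8.13 and 8.16 in castrated samples, against 8.03, 8.08 and 8.04 in sham samples. The groups are apart by little, with a difference of 0.12 (standard error 0.091, limma adjusted p = 0.824). Edem1, which directs misfolded glycoproteins to degradation, was the 1 gene of the list with an unadjusted p under 0.05 and differed by −0.39 (standard error 0.13, limma adjusted p = 0.668). As the mean of all its probe sets it differed by −0.25. Calr and Manf differed by 0.093 and 0.089.

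Among 9 genes for the mitochondrial stress relay, chaperones and proteases, 6 had a lower mean, 1 was lower at the unadjusted level, 0 were higher and 0 passed over all genes. The matrix protease Lonp1 measured 7.90, 7.94 and 7.98 in castrated samples, against 8.26, 8.10 and 8.24 in sham samples (difference −0.26, standard error 0.096, limma adjusted p = 0.671). The groups do not overlap. Clpp differed by −0.18, Hspa9 by −0.11 and Hspd1 by 0.064, all with overlapping groups. Hspa9 was −0.039 without sham sample 3. The list's median of −0.0405 has no settled direction, since it was 0.0024 without castrated sample 1.

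**Figure D5:**
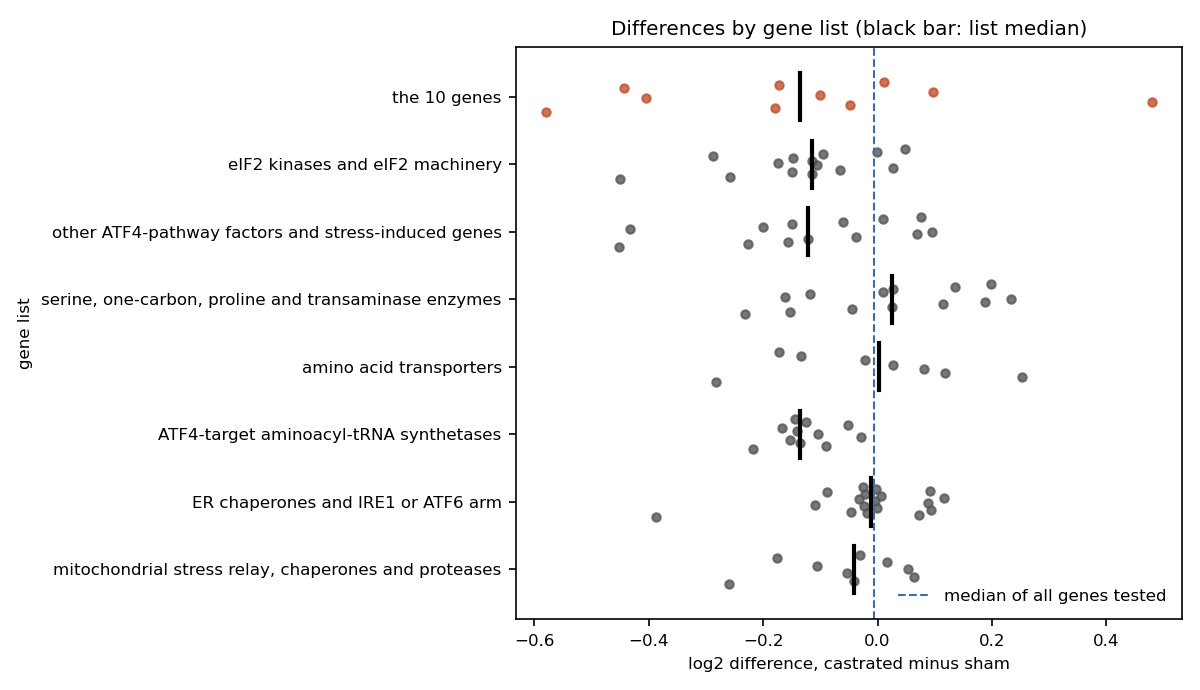
Log2 differences, castrated minus sham, of the 10 genes (top row) and of the measured genes of 7 pathway lists. Each point is a gene, black bars are list medians and the dashed line is the median of all 22180 genes. The aminoacyl-tRNA synthetases all lie left of 0, and the genes of the IRE1 and ATF6 branches gather around it.

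Over the 7 lists, 86 of 93 genes were measured, of which 59 (68.6%) had a lower mean, against 51.5% of all genes. At the unadjusted level 9 were lower and 2 higher, where 3.51% of all genes were lower and 3.62% higher, and 0 passed over all genes. The share with a lower mean is that of the values as deposited. With quantile or cyclic loess normalization it is smaller, since of 18 IRE1 and ATF6 branch genes 5 then had a lower mean, against 12. Genes with array profiles closest to those of the leading members were found by the mean absolute difference of centred log2 values over the 6 arrays. Closest to Ppp1r15a were the signalling scaffold Cnksr1 (0.0447), the clock factor Arntl (0.0464) and the LIM-domain gene Fhl3 (0.0512), with differences of −0.51, −0.65 and −0.49 between castrated and sham samples. Genes picked for closeness over these arrays have group differences like that of Ppp1r15a by that choice. Closest to Mthfd2 were Mphosph9 (0.0345), Olfr1362 (0.0397) and Snora2b (0.0476), and closest to Vldlr were Scgb2b21 (0.0381), Lin54 (0.0490) and Fancm (0.0492). Olfr1362, Snora2b and Scgb2b21 belong to families of similar genes, so their signal may be shared with relatives.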

How the data were processed

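The authors deposited a table of log2 values, each for a probe set of an Affymetrix whole-transcript array. The submitters' processing notes name Partek; the background correction, summarization, normalization and genome build were not given in the sources used here. RNA came from about 25 mg of muscle, and 300 ng of it was labelled with biotin, per the labels' protocols. Arrays have no read depth, and their number limits the precision.

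The table holds 41345 probe sets, of which 23521 carry 1 gene symbol, 1814 several and 16010 none. Symbols were updated by Entrez identifier (23328 matched, GRCm38.p6 gene table). Where several 1-symbol probe sets named a gene, that of highest mean level stood for it. Samples were grouped by title. The test was limma 3.58.1 under R 4.3.3 (castrated minus sham, Benjamini-Hochberg adjustment over 22180 genes, threshold 0.05), and the procedure was tested on simulated data. Since the labels do not state more than a mouse for each sample, p-values reflect only how much these samples vary, which may be technical. Unadjusted p under 0.05 and groups that do not overlap were counted as descriptions.

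The members and lists were chosen with earlier results of these data known. Named are all members, the 4 genes of each list with the smallest p, a fixed set of further pathway genes, and for 3 members the 3 closest array profiles. Eif2ak1, Eif2b2, Eif2b5, Impact, Cd68 and Emcn fall outside this rule and were chosen after their values were seen. Not analysed here, for want of a 1-symbol probe set, were Eif2s1, Eif2s3x, Gdf15, Pycr1, Slc6a9, Aars and Pdia4. Promoter sequences are from RefSeq. Figures were drawn with matplotlib 3.10.9. The alternatives were other normalizations, filters, probe set rules, variance models, a replicate block and leaving out each sample. Those on the lists, on genes outside the 10 and on unadjusted counts were added after seeing the data.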

Additional observations from a re-analysis of the deposited data

How the results depend on the processing

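Under 17 alternatives 0 of the 10 members passed the threshold, and neither did any of the 44 named genes, members included. Leaving out 1 sample gave 3 lower members and 1 higher member at an unadjusted p under 0.05 each time, a median member difference of −0.16 (without sham sample 1) to −0.061 (without sham sample 3), and 5 to 6 members without overlap. With all samples the median member difference was −0.10 with quantile normalization, −0.099 with cyclic loess and −0.15 with array medians subtracted, against −0.14 as deposited. Without variance moderation 0 members were higher at the unadjusted level. Of 737 single-gene values 19 had the other direction, all of 7 genes with small or scattered differences. Psat1 was −0.022 with quantile normalization, −0.0070 with array medians subtracted, −0.019 with cyclic loess and −0.0094 with array weights. Slc7a11 was −0.015 as the mean of its probe sets. With a sample left out, Psat1 ran from −0.078 to 0.11, Trib3 from −0.15 to 0.083, Atf3 from −0.72 to 0.29, Fgf21 from −0.081 to 0.26, Eif2ak4 from −0.028 to 0.10, Slc7a11 from −0.057 to 0.082 and Hspd1 from −0.0053 to 0.12. With the filter at the 50th percentile Mthfd2, Trib3 and Psat1 were not tested, and the median of the other 7 members was −0.17. Over all genes the count past the threshold was 3 as reported, 9 and 16 with the filters at the 25th and 50th percentile, 10 with the trended robust prior, 2 with the replicate block and 0 without moderation. Same-numbered samples correlated at 0.076, 0.033 and 0.047 in their deviations from group means, so the numbers were not taken as pairs, although 6 of 6 samples correlated best with their own number in the other group. With the replicate block 0 members passed. No detection values were used, so signal over background limits the dim genes Mthfd2, Trib3, Psat1, Aldh1l2, Aldh18a1, Fgf21 and Slc7a11.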

Other observations

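For many of the genes described here, values within a group spread over more than the difference between the groups. Atf3 and Impact are given as examples of a wide spread. Atf3, a stress- and injury-induced transcription factor downstream of ATF4, measured 10.23, 8.21 and 9.28 in castrated samples and 10.13, 9.37 and 8.89 in sham samples, a difference of −0.23 with a standard error of 0.47. Its values span 2.01 log2 units within the castrated group. Castrated sample 1 and sham sample 1 were the highest of their groups both for Atf3 and for the macrophage marker Cd68, which measured 8.77, 7.47 and 8.54 in castrated samples and 9.20, 7.70 and 7.76 in sham samples. Impact, which restrains the kinase GCN2, measured 7.63, 8.60 and 8.44 in castrated samples and 8.17, 8.21 and 8.61 in sham samples, with castrated sample 1 the lowest.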
